A study of Mus musculus with 8 samples.

Results

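The pancreatic duct marker set held 10 genes that mark the duct epithelium, namely Sox9, Krt7, Krt19, Krt8, Krt18, Cftr, Spp1, Muc1, Tspan8 and Slc4a4, out of 27962 gene names on the array. A probe belonged to the set if it was not a control spot and its gene name in the array files was one of these symbols, which gave 18 probes out of 41174. Probes entered the set by gene name alone, and the 10 genes were chosen with earlier results of these data known. Of the 18 probes, 15 were well above background on all 8 arrays, at least 1 for every gene, and the other 3 (1 of Cftr, 2 of Slc4a4) were above background on no array.

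Whole pancreas was taken from 4 Glis3KO2 mice and 4 wild-type (WT) mice, all C57BL/6 and 1 week of age. The labels name the knockout line without giving the part of Glis3 that was deleted or a cell type in which it was deleted, and they state that the pups had remained with their own mothers. Total RNA (500 ng) was labelled with Cy3 and each sample was hybridised to its own single-colour Agilent mouse array. The only comparison in the design is Glis3KO2 against WT.

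The exocrine pancreas consists of acinar cells, which make digestive enzymes, and of a branching duct system that collects the juice, adds bicarbonate and fluid and carries it to the gut. Duct cells share the transcription factor Sox9 and simple-epithelium keratins, and they secrete bicarbonate through the chloride and bicarbonate channel Cftr and the sodium bicarbonate cotransporter Slc4a4. Glis3 is a Krüppel-like zinc finger protein of the Gli-similar family that binds DNA. It is known for its part in beta cell development and insulin gene expression, and loss of Glis3 in mice has also been linked to altered pancreatic ducts.

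Each gene was read through 60-base probes, and 3 of the genes have probes whose results differ, so the first 30 bases of those probes are shown in lower case from the 5′ end. Positions are those of build mm7 given in the array files, and the exon or UTR at each position was not analysed here.
Sox9, A_52_P577484, chr11:112894739-112894798: ttccaggagagagactttaagactttgtct
Sox9, A_52_P214630, chr11:112896540-112896599: ataaaaccttaaagcgttcttataatatgg
Sox9, A_51_P451606, chr11:112892041-112892893: actctgggcaagctctggaggctgctgaac
Cftr, A_51_P305896, chr6:18262943-18263002: cactagctattttaaaacaggggagtgagg
Cftr, A_52_P452881, chr6:18208199-18208258: gccaacaaaactaggattttggttacatct
Slc4a4, A_51_P273800, chr5:89168830-89168889: aagaaaactgatcagtgattttgccattat
Slc4a4, A_52_P173402, chr5:89208773-89208832: ttagactttccttagccaaattgatgtggc
Slc4a4, A_52_P457567, chr5:89211145-89211204: aagaagatgagatattttagcatttatatt
The second Cftr probe and the last 2 Slc4a4 probes are the ones that were above background on no array, while the first probe of each of those genes was above background on all 8. The 3 undetected probes had a GC content of 35%, 35% and 15% over their 60 bases, and the 15 detected ones ranged from 30% to 60%, with a median of 45%. The probe at 15% had the lowest GC content of any on the array. The 3 Sox9 probes had 43.3%, 30% and 60% GC in the order shown.

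The number of probes well above background was 31351 to 35628 over the 8 arrays, with no saturated spot. Each genotype had a slide of its own, so in all results that follow the slide cannot be told apart from the genotype. Xist, which marks cells with an inactive X chromosome, was high on 3 Glis3KO2 arrays (replicates 1, 3 and 4) and on 1 WT array (replicate 4). Glis3KO2 replicates 3 and 4 stood apart on the first principal component of all tested probes. The single Glis3 probe was above background on 0 of 4 Glis3KO2 arrays and on 3 of 4 WT arrays, and was too dim to be tested. Nothing in the labels says whether pups of 1 genotype shared a litter.

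Of the 10 duct markers, 0 passed an adjusted p of 0.05 between genotypes in limma, against 0.256% of all 33237 tested probes (85 probes; 0.0812% of the tested probes were higher in Glis3KO2 and 0.175% lower). Values are log2 signal from which the array's own 75th percentile was subtracted, and each gene is represented by its brightest probe. At an unadjusted p of 0.05, 2 of the 10 genes (Sox9 and Tspan8) passed, against 8.98% of all tested probes, and neither passed after adjustment over all probes. Glis3KO2 was higher than WT in 5 genes and lower in 5, with a median log2 difference of 0.02, against -0.01 over all tested probes. The differences ran from -0.38 to 0.23, that is from 0.769 to 1.18 times the WT level, and the adjusted p-values of the 15 probes ran from 0.43 to 0.994. In whole tissue, fewer duct cells and less RNA per duct cell cannot be told apart, and this holds for every gene below.

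**Figure D1:**
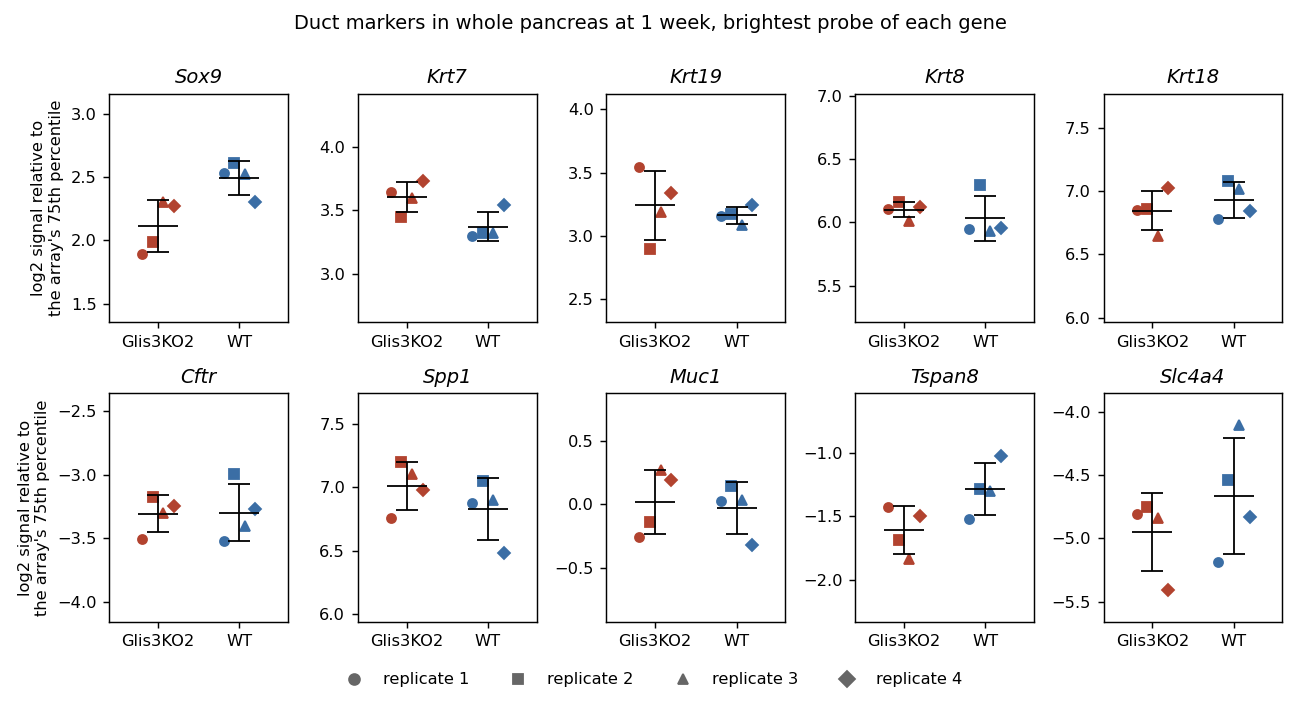
Log2 signal after subtracting the array's own 75th percentile (vertical axes, each spanning the same number of log2 units) for the brightest probe of each duct marker, with 1 point per array, marker shapes for replicate numbers, and bars for the mean ± SD (n = 4 Glis3KO2 in red, n = 4 WT in blue). The Sox9 points of Glis3KO2 (1.90 to 2.30) end just under those of WT (2.30 to 2.61), and the points of the 2 genotypes overlap in the other 9 genes.

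Sox9, the transcription factor that maintains duct and progenitor identity in the pancreas, had the lowest difference of the set. Its brightest probe read 1.90, 1.99, 2.30 and 2.28 on the Glis3KO2 arrays (mean 2.11 ± 0.20, SD, n = 4) and 2.53, 2.61, 2.53 and 2.30 on the WT arrays (mean 2.49 ± 0.13, SD, n = 4). All Glis3KO2 arrays were below all WT arrays, but the highest Glis3KO2 and the lowest WT array both read 2.30 to 2 decimals. Sox9 was the only duct marker whose groups did not overlap, which held for 5.21% of all tested probes. The difference was -0.38 (SE 0.13, 95% interval -0.67 to -0.09), or 0.769 times WT, with an unadjusted p of 0.0162 and an adjusted p of 0.43 in limma.

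The other 2 Sox9 probes gave smaller differences. The second probe shown above, with 10 spots per array, read 1.11, 1.44, 1.77 and 1.37 in Glis3KO2 and 1.63, 1.55, 1.90 and 1.55 in WT. Its groups overlapped through Glis3KO2 replicate 3, which was above 3 of the WT arrays, and its difference was -0.24 (SE 0.15, adjusted p = 0.704, limma). The third Sox9 probe, the dimmest of the 3, read -3.77, -3.22, -3.42 and -3.54 in Glis3KO2 and -3.50, -3.26, -3.40 and -3.46 in WT, a difference of -0.08 (SE 0.13, adjusted p = 0.906, limma). Glis3KO2 replicate 1 was the lowest of the 8 arrays with each of the 3 probes. Without Glis3KO2 replicates 3 and 4, which stood apart from the other arrays, the difference of the brightest probe was -0.55 with an adjusted p of 0.37.

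Krt7 and Krt19 are keratins of simple epithelia that in the pancreas mark duct cells rather than acinar cells. Krt7 read 3.64, 3.45, 3.60 and 3.73 in Glis3KO2 (mean 3.61 ± 0.12, SD, n = 4) and 3.30, 3.32, 3.32 and 3.54 in WT (mean 3.37 ± 0.11, SD, n = 4). WT replicate 4 lay above Glis3KO2 replicate 2, and the other 3 WT arrays lay below every Glis3KO2 array. The difference of 0.23 (SE 0.11, 95% interval -0.01 to 0.47), the highest of the set, had an unadjusted p of 0.0542 and an adjusted p of 0.566 in limma. The other Krt7 probe read 0.69 to 0.82 in Glis3KO2 and 0.47 to 0.75 in WT, a difference of 0.16 (SE 0.10, adjusted p = 0.689, limma). Krt19 read 3.54, 2.90, 3.19 and 3.34 in Glis3KO2 and 3.15, 3.17, 3.08 and 3.25 in WT. Its Glis3KO2 arrays held both the highest and the lowest of the 8 values and enclosed the WT arrays, and the difference was 0.08 (SE 0.14, 95% interval -0.24 to 0.40, adjusted p = 0.918, limma).

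Krt8 and Krt18 pair with each other in the filaments of simple epithelia, and acinar as well as duct cells make them. Krt8 read 6.11, 6.16, 6.01 and 6.12 in Glis3KO2 and 5.95, 6.29, 5.93 and 5.95 in WT. WT replicate 2 was the highest of all arrays and the other 3 WT arrays were the lowest, so that the Glis3KO2 values lay inside the WT range, and the difference was 0.07 (SE 0.11, 95% interval -0.18 to 0.32, adjusted p = 0.908, limma). The second Krt8 probe had the same highest and lowest arrays, WT replicates 2 and 3, and a difference of 0.04 (adjusted p = 0.957, limma). Krt18 read 6.85, 6.86, 6.65 and 7.02 in Glis3KO2 and 6.78, 7.08, 7.02 and 6.85 in WT, also with WT replicate 2 on top. Its difference was -0.09 (SE 0.12, 95% interval -0.35 to 0.18, adjusted p = 0.884, limma).

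The bicarbonate secretion genes of the set, Cftr and Slc4a4, were dim in both genotypes. Cftr, whose loss in humans causes cystic fibrosis, read -3.51, -3.17, -3.30 and -3.25 in Glis3KO2 and -3.52, -3.00, -3.40 and -3.27 in WT. The WT range enclosed the Glis3KO2 range, and the difference was -0.01 (SE 0.14, 95% interval -0.31 to 0.30, adjusted p = 0.994, limma). Slc4a4, which brings bicarbonate into the duct cell from the blood side, read -4.81, -4.75, -4.84 and -5.40 in Glis3KO2 and -5.18, -4.54, -4.11 and -4.83 in WT. Glis3KO2 replicate 4 was the lowest array and WT replicate 3 the highest, with the rest intermixed. The difference of -0.29 (SE 0.24, adjusted p = 0.776, limma) had the widest 95% interval of the set, -0.82 to 0.25, and the highest pooled SD over arrays, 0.388 against 0.117 for Krt7. It was -0.10 without WT replicate 3, -0.13 without Glis3KO2 replicate 4, -0.46 without WT replicate 1 and -0.12 with normexp background correction.

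Spp1 (osteopontin), a secreted phosphoprotein made by duct cells and by other cells such as macrophages, read 6.76, 7.20, 7.10 and 6.98 in Glis3KO2 and 6.88, 7.05, 6.90 and 6.48 in WT. WT replicate 4 was the lowest array and Glis3KO2 replicate 2 the highest, and the difference was 0.19 (SE 0.15, 95% interval -0.16 to 0.53, adjusted p = 0.769, limma). It was 0.07 without WT replicate 4 and 0.36 with Xist as a covariate. The 8 macrophage genes read beside it had 0 calls in either direction, against 0.256% of all tested probes, and a median difference of 0.001. Which cells gave the Spp1 signal was not tested.

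Muc1 is a mucin of the apical surface, and Tspan8 is a tetraspanin of the cell membrane. Muc1 read -0.26, -0.14, 0.27 and 0.19 in Glis3KO2 and 0.03, 0.14, 0.04 and -0.32 in WT, with overlapping groups. Its difference was 0.05 (SE 0.16, 95% interval -0.31 to 0.40, adjusted p = 0.963, limma), and its second probe gave 0.05 (adjusted p = 0.958, limma), with the same highest and lowest arrays. Tspan8 read -1.42, -1.68, -1.84 and -1.49 in Glis3KO2 (mean -1.61 ± 0.19, SD, n = 4) and -1.52, -1.28, -1.30 and -1.02 in WT (mean -1.28 ± 0.20, SD, n = 4). WT replicate 1 lay below Glis3KO2 replicates 1 and 4, and the other 3 WT arrays lay above every Glis3KO2 array. The difference was -0.33 (SE 0.14, 95% interval -0.64 to -0.01), or 0.796 times WT, with an unadjusted p of 0.0435 and an adjusted p of 0.537 in limma.

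For 3 probes printed many times on each array, the spread between spots could be read as well. Over 10 spots on 1 array the pooled SD was 0.064 for the second Sox9 probe, 0.138 for Cftr and 0.058 for Spp1. The pooled SD between arrays of a genotype was 0.224, 0.188 and 0.220 for the same 3 probes, each array's value being the mean of its spots. WT replicate 2 held the highest value for 4 of the 10 genes (Sox9, Krt8, Krt18 and Cftr) and the lowest for none. Averaged over the 10 genes and relative to the WT mean, the arrays lay between -0.07 and -0.002 in Glis3KO2 and between -0.12 and 0.13 in WT, so the Glis3KO2 arrays fell inside the WT range.

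**Figure D2:**
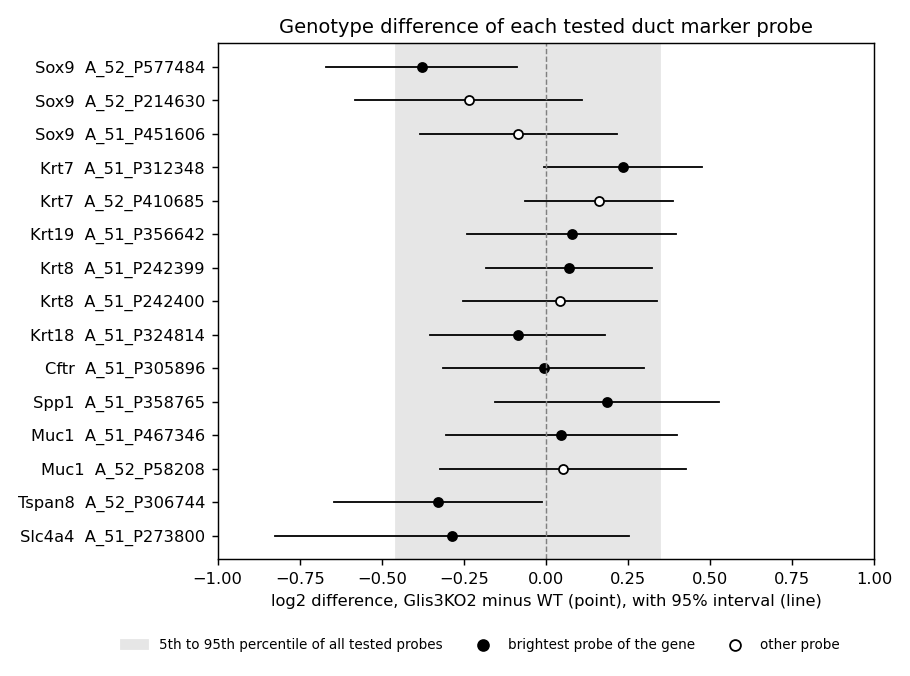
Log2 difference, Glis3KO2 minus WT (horizontal axis), of each of the 15 tested duct marker probes, as points with 95% intervals from limma (n = 4 each). Filled points are the brightest probe of a gene and the grey band runs from the 5th to the 95th percentile of all tested probes (-0.46 to 0.35). Every point lies inside the band, and the intervals of the brightest Sox9 probe and of Tspan8 end below 0.

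The intervals bound what these arrays could have missed. Over the 10 genes, the lowest 95% bound was 0.565 times WT (Slc4a4) and the highest 1.44 times WT (Spp1), before any allowance for the number of probes tested. All 10 differences lay between the 5th and the 95th percentile of the tested probes, which were -0.46 and 0.35. A p above the threshold does not show that the genotypes were alike.

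Beyond the 10 markers, 4 lists were read: ion and fluid secretion, transcription factors of ducts and their progenitors, epithelial surface, junction and cilium genes, and other keratins. The keratin list was not limited to keratins of duct cells. Of 52 tested genes in these lists, 1 passed the threshold, against 0.256% of all tested probes. Onecut2, a homeodomain factor related to Onecut1, which acts in duct and endocrine progenitors, read 1.76, 1.97, 1.66 and 1.83 in Glis3KO2 (mean 1.80 ± 0.13, SD, n = 4) and -1.09, -0.17, -0.90 and -0.95 in WT (mean -0.77 ± 0.41, SD, n = 4). The groups lay far apart, and Onecut2 was 5.97-fold higher in Glis3KO2 (log2 difference 2.58, SE 0.19, adjusted p = 0.00139, limma). Without Glis3KO2 replicates 3 and 4 the difference was 2.64 with an adjusted p of 0.0505. The other 11 of the 12 transcription factors did not pass, and the list's median difference was 0.02. Among them, Ehf, an epithelial Ets factor, had a difference of -0.51 (adjusted p = 0.353, limma) and Klf5, a zinc finger factor of epithelia, one of 0.29 (adjusted p = 0.505, limma). At an unadjusted p of 0.05 in limma, 3 of the 12 passed (Onecut2, Ehf and Klf5), against 8.98% of all tested probes.

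Of 15 ion and fluid secretion genes on the array, 14 were tested and 0 passed in limma, with a median difference of -0.04. At an unadjusted p of 0.05, 2 passed (Kcnn4 and Sctr), against 8.98% of all tested probes. Sctr entered the test through its WT arrays alone, so its pass is not read as a result. Kcnn4, a calcium-activated potassium channel of secretory epithelia, came closest. It read -0.63, -0.38, -0.67 and -0.41 in Glis3KO2 and 0.68, 0.17, 0.29 and 0.26 in WT. The groups did not overlap, which held for 5.21% of all tested probes. The Kcnn4 difference was -0.87 (SE 0.14, adjusted p = 0.0527, limma), or 0.547 times WT. With quantile normalization the adjusted p of Kcnn4 was 0.0449 and with normexp background correction 0.0152, and over all 20 alternatives, 4 of which put it past the threshold, it ran from 0.00766 to 0.298.

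Sctr, the receptor for secretin, the hormone that drives bicarbonate secretion, was above background on 1 of 4 Glis3KO2 arrays and on all 4 WT arrays. It read -6.33, -6.98, -5.48 and -6.12 in Glis3KO2 and -5.19, -5.53, -5.21 and -5.08 in WT, with Glis3KO2 replicate 3 inside the WT range. The WT arrays alone brought it into the test, and 3 of its 4 Glis3KO2 values were not well above background, so no difference is given. Car2, a carbonic anhydrase that makes bicarbonate, had a difference of 0.56 (SE 0.39, adjusted p = 0.723, limma). The untested gene of this list, Slc9a3, was above background on no array.

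All 14 epithelial surface, junction and cilium genes were tested and 0 passed in limma, against 0.256% of all tested probes. Their count at an unadjusted p of 0.05 was also 0, against 8.98% of all tested probes, and their median was 0.03. Pkhd1, the fibrocystin of primary cilia, had a difference of -0.25 (adjusted p = 0.666) and Clu, the secreted chaperone clusterin, one of -0.22 (adjusted p = 0.645), both in limma. All 12 other keratins were tested and 0 passed in limma, with a median of 0.12. At an unadjusted p of 0.05, 3 passed (Krt23, Krt15 and Krt6a), against 8.98% of all tested probes. Krt23, named after its values were seen, read 2.38, 2.49, 2.49 and 2.60 in Glis3KO2 and 2.94, 3.05, 2.95 and 2.74 in WT. Its groups did not overlap, which held for 5.21% of all tested probes, and the difference was -0.43 (SE 0.10, adjusted p = 0.232, limma). Krt15 had a difference of 0.74 (adjusted p = 0.52), Krt6a of -0.50 (adjusted p = 0.523) and Krt80 of 0.47 (adjusted p = 0.689), all in limma. These 3 probes were dim, and with normexp background correction Krt15 was 0.24, Krt6a -0.19 and Krt80 -0.01. Krt20, one of the 12, had no value on Glis3KO2 replicate 4, where its spot had an outlier mark, and entered the fit with the other 7 arrays.

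**Figure D3:**
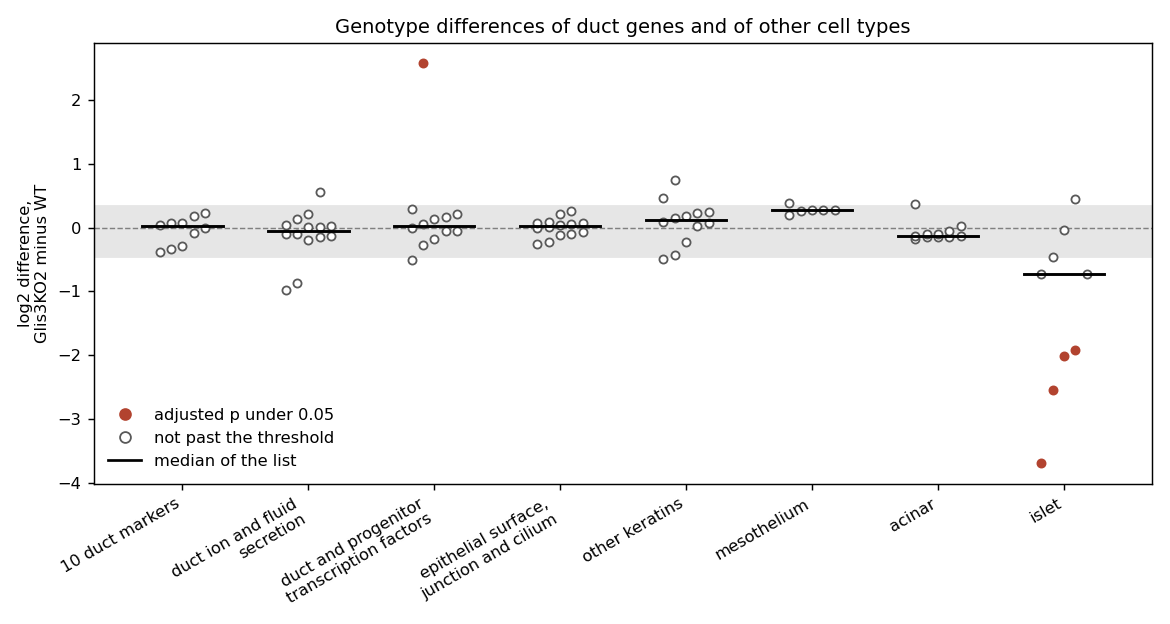
Log2 difference, Glis3KO2 minus WT (vertical axis), of each tested gene of the 10 duct markers, the 4 accompanying lists and the mesothelium, acinar and islet lists. A line marks each list's median, and a grey band runs from the 5th to the 95th percentile of all tested probes. Red points passed an adjusted p of 0.05: Onecut2 at 2.58 among the transcription factors, and Ins2, Ins1, Ppy and Chga between -3.70 and -1.93 among the islet genes. The lowest point of the ion and fluid secretion list is Sctr, which the WT arrays alone brought into the test.

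Markers of other cell types of the pancreas were read on the same arrays, and their part in the duct values was not tested. Of 9 islet genes, 4 fell in Glis3KO2, against 0.175% of all tested probes: Ins2 (-3.70, adjusted p = 0.000536), Ins1 (-2.54, adjusted p = 0.00132), Ppy (-2.01, adjusted p = 0.00648) and Chga (-1.93, adjusted p = 0.0059), which encode insulin, pancreatic polypeptide and chromogranin A. The islet list's mean relative to WT lay between -1.67 and -0.83 on the Glis3KO2 arrays and between -0.19 and 0.17 on the WT arrays, with no overlap. Of 11 acinar genes, 0 passed in limma, against 0.256% of all tested probes. The count at an unadjusted p of 0.05 was also 0, against 8.98% of all tested probes. The acinar list's median was -0.13, and its mean lay between -0.20 and 0.08 in Glis3KO2 and between -0.11 and 0.16 in WT.

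Mesothelial cells also make simple-epithelium keratins. All 6 mesothelial genes had positive differences, 0.20 to 0.39, with 0 past the threshold in limma and 1 at an unadjusted p of 0.05, against 8.98% of all tested probes. Their mean relative to WT lay between 0.18 and 0.50 in Glis3KO2 and between -0.29 and 0.34 in WT. A shared sign was not particular to this list: all 7 mesenchymal genes had positive differences and all 5 endothelial genes negative ones. Both lists had 0 calls in limma, with medians of 0.15 and -0.16, against -0.01 over all tested probes. Of their genes, 1 and 2 passed an unadjusted p of 0.05, against 8.98% of all tested probes. Of 6 intestinal genes on the array, 4 were tested: Vil1, Fabp2, Lct and Muc2. They had 0 calls, against 0.256% of all tested probes, and a median difference of -0.02. At an unadjusted p of 0.05, 0 passed, against 8.98% of all tested probes. All 4 were above background on all 8 arrays. Cdx1 was above background on 1 Glis3KO2 array, and Cdx2, the factor that defines intestinal epithelium, on none.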

How the data were processed

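Agilent Feature Extraction 9.5.3.1 had read the scans per the file headers (version 9.5 per the submitters' processing notes), and the deposited files give each spot's processed signal as an intensity on a linear scale that can be compared between arrays only after scaling. Background removal and scaling can change values of dim probes most. The deposited series table held the same intensity values. Spots with outlier marks were dropped (56 to 130 per array of 43379 non-control spots), log2 of the signal was taken relative to each array's 75th percentile, and spots of a probe were averaged. This scale hides any shift that most genes share.

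A probe was tested where at least 4 of the 8 arrays, of either genotype, read it well above background. This left 33237 probes, of which 43 had a value missing on an array (none of a duct marker). Genotypes were compared with limma 3.58.1 in R 4.3.3 (lmFit and eBayes, two-sided, genotype as the sole term), with Benjamini-Hochberg adjustment over all tested probes. The fit was tested on simulated data. Array number, 4 per genotype, limits the precision, and no label says that samples came from separate litters, so a p-value covers only the spread among these arrays. The labels do not say whether replicate numbers in the titles pair the samples, and the fit did not pair them. Deviations of same-numbered arrays correlated at 0.129, 0.0893, 0.237 and -0.0375. The same-numbered WT array correlated best for Glis3KO2 replicates 2 and 3 but not for 1 and 4.

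The duct markers and all lists were chosen with earlier results of these data known. The text gives every probe of the 10 markers, and from each other list the members past the threshold plus, for the duct lists, the 3 tested members with the largest absolute difference, of which 1 is not reported here. Python 3.11.15 drew the figures. Alternatives covered normalization, background correction, the filter, the variance model, array weights, Xist as a covariate and left-out arrays.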

Additional observations from a re-analysis of the deposited data

Results flagged for a closer look

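In each genotype, the 15 tested duct marker probes were searched for 1 array far from the other 3, by whether its gap to the nearest of them took up more than 0.829 of the group's range, and 3 of 30 groups of 4 arrays had such an array. Chance alone marks about 1 group in 20 this way. Slc4a4 was low on Glis3KO2 replicate 4, at -5.40 against -4.84 to -4.75 on the other Glis3KO2 arrays. The brightest Krt7 probe was high on WT replicate 4, at 3.54 against 3.30 to 3.32 on the other WT arrays. The other Krt7 probe was not marked and read 0.64 there, below WT replicate 2 at 0.75. The brightest Krt8 probe was high on WT replicate 2, at 6.29 against 5.93 to 5.95 on the other WT arrays. The other Krt8 probe was also highest there, at 6.22, but was not marked.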

How the results depend on the processing

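No duct marker passed the threshold with its brightest probe under any alternative, or with any tested probe in the main fit. The other probes were not read singly under the alternatives. With the brightest probes, the number at an unadjusted p of 0.05 ran from 0 (scaling to the median) to 3. The Sox9 difference ran from -0.55 to -0.23 and that of Tspan8 from -0.44 to -0.24, and the lowest adjusted p of any duct marker was 0.298. Of the 10 duct markers, 3 with differences near 0 changed sign. Cftr was 0.018 with quantile normalization, 0.019 with scaling to the median, 0.022 with array weights, 0.022 with Xist as a covariate and 7.23e-05 with outlier spots kept, and it ran from -0.081 to 0.092 without each array in turn. Krt19 was -0.064 with Xist as a covariate and from -0.022 without Glis3KO2 replicate 1 to 0.19 without Glis3KO2 replicate 2. Muc1 was -0.17 without Glis3KO2 replicates 3 and 4 and ran from -0.052 to 0.14 without each array. For the genes named from the accompanying lists the alternatives were added after seeing the data, and Krt80 was -0.013 with normexp. Against 27 higher and 58 lower probes over the array, there were 32 lower with no filter, 7 and 8 with the replicate block, 44 and 98 with trend and robust settings, 12 and 15 with Xist as a covariate, 5 and 6 without Glis3KO2 replicates 3 and 4, and from 15 to 25 and from 20 to 73 without each array in turn; the cause was not tested. Each scaling sets the arrays to a common level. The median of all probes, which no scaling moved by 0.1, could therefore not show a shared shift. Signal over background limits Slc4a4, Cftr, Sctr, Krt15, Krt6a, Krt80 and the third Sox9 probe, which are dim.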
